A study of Homo sapiens with 6 samples.

Results

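The DOCK genes encode guanine nucleotide exchange factors, enzymes that load GTP onto the small GTPases Rac and Cdc42, molecular switches of the actin skeleton. The set described here holds 9 of them (DOCK1, DOCK3, DOCK4, DOCK5, DOCK6, DOCK8, DOCK9, DOCK10 and DOCK11), taken by symbol from a count table of 37923 genes, and each symbol matched 1 row. They were chosen by family name with their measured ENZ and Control values already known, so every fold change of a DOCK gene between ENZ and Control is given as a description and supports nothing by itself. RNA came from cells labelled RKO, a human colorectal carcinoma line, in 3 libraries of an ENZ group and 3 of a Control group. The series design says that ENZ cells received A3, a compound that degrades the histone demethylase LSD1, and that RNA was taken 48 h after treatment. The sources used here give no dose, no treatment of the Control cells and no meaning of the name ENZ. The design calls the libraries of a group biological replicates without saying what separated them, so p-values reflect only library-to-library spread, which may be technical.

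DOCK proteins share a lipid-binding domain that brings them to phosphoinositide-rich membrane and a catalytic domain, unrelated to that of the Dbl family, that opens the nucleotide pocket of the GTPase. Subfamilies A (DOCK1, DOCK5) and B (DOCK3, DOCK4) act mainly on Rac and work with ELMO scaffold proteins, subfamily C (DOCK6, DOCK8) acts on Rac or Cdc42, and subfamily D (DOCK9, DOCK10, DOCK11, the zizimins) acts on Cdc42. Through these switches they shape actin at the edge of migrating cells, the engulfment of dead cells and the growth of neurites, and several, DOCK8 first among them, are best known from leukocytes.

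Libraries held 26756840 to 30025543 counts in ENZ and 26691289 to 28207612 in Control, and no library stood apart in total. The labelled origin was set against marker lists. Among 11 measured colorectal epithelial markers 7 had a mean under 1 CPM (counts per 1000000 counts of the library), with a summed level of 150 to 157 CPM in ENZ and 136 to 141 CPM in Control, and CDX1 and KRT20 were at or near 0. All 12 prostate luminal markers were measured, 9 of them over 10 CPM, and they summed to 3259 to 3290 CPM in ENZ and 3037 to 3105 CPM in Control, with FOLH1, which encodes prostate-specific membrane antigen, at 857 ± 5.71 CPM in ENZ and 626 ± 3.69 CPM in Control (SD, n = 3 each). The markers therefore go against the label, and the cells are called by their label only. In the prostate list 5 of 12 tested genes were higher and 5 lower in ENZ, where 20.5% of all genes tested were higher and 19.3% lower. Log2 fold changes in that list ran from −1.69 to 0.75, and the part of these differences in the DOCK results was not tested. All 9 measured leukocyte markers were under 1 CPM, summing to 1.60 to 2.13 CPM in ENZ and 1.29 to 1.69 CPM in Control, with PTPRC (CD45) at 0.0682 CPM in ENZ and 0.110 CPM in Control. In bulk RNA, fewer cells of a type and less RNA per cell cannot be told apart.

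Of the 9 DOCK genes, 8 had enough counts to be tested, 3 of them were called lower (DOCK8, DOCK4, DOCK11), 3 higher (DOCK3, DOCK6, DOCK9) and 2 were not called (DOCK1, DOCK5) in edgeR's quasi-likelihood test at an adjusted p under 0.05 over all 18581 genes tested. Of all genes tested, 39.8% were called, 20.5% higher and 19.3% lower, and nothing is read from the count of DOCK genes against it. The falls were larger than the rises. DOCK8 was the only DOCK gene past a log2 fold change of −1, a size that 2.24% of the genes tested reached together with a call. No DOCK gene rose past a log2 fold change of 1, where 0.737% of the genes tested lay with a call. The median log2 fold change was −0.02 over the 8 DOCK genes and −0.01 over all genes tested. For 7 of the 8 tested DOCK genes the FPKM values of the groups did not overlap, against 49.2% of all genes tested, and nothing is read from that count either. FPKM, the deposited measure, divides counts by gene length and by the library total.

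**Figure D1:**
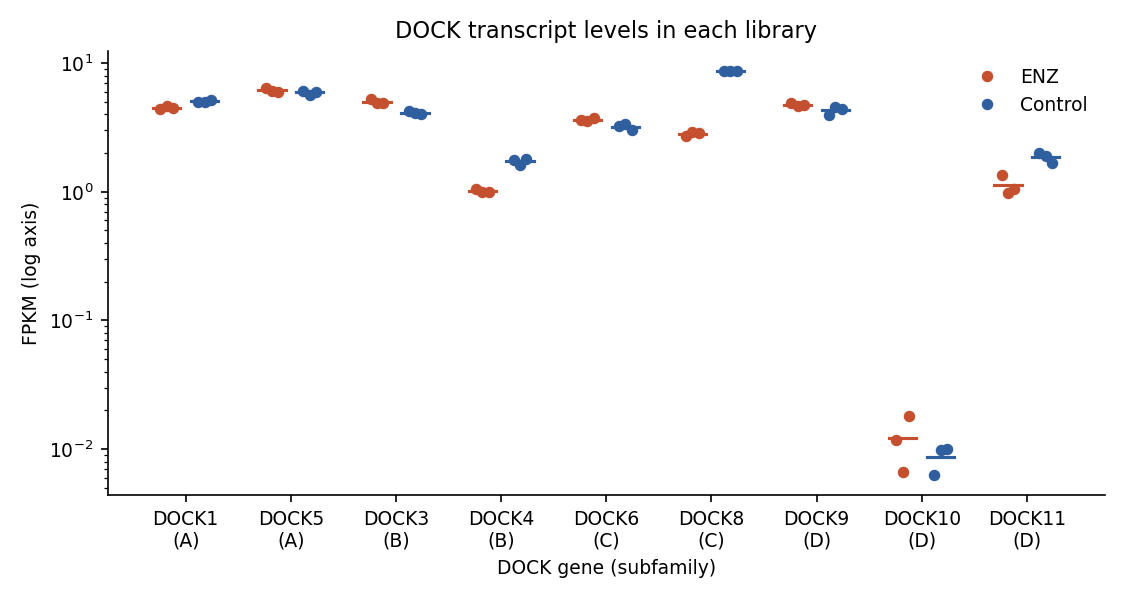
FPKM of each DOCK gene in each library on a log axis, with the subfamily in brackets; dots are libraries, bars are means of 3, ENZ to the left of Control. DOCK8 lies at 2.72 to 2.90 FPKM in ENZ and 8.65 to 8.68 FPKM in Control, and DOCK10 lies more than an order of magnitude under every other DOCK gene.

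DOCK8, a Cdc42 exchange factor whose loss causes a combined immunodeficiency in people, showed the largest difference. It had 2.72, 2.90 and 2.89 FPKM in ENZ libraries, against 8.66, 8.68 and 8.65 FPKM in Control libraries, from 1637, 1557 and 1701 counts in ENZ and 4898, 4732 and 4630 counts in Control. All ENZ libraries were low and all Control libraries high, with a gap far wider than the spread of either group. The log2 fold change was −1.58 ± 0.04 (SE), a fall to 0.335 of the Control level. Among all 18581 genes tested, 109 had a lower log2 fold change, and 9 did among the 10240 tested genes with a mean over 10 CPM. DOCK8 was the most abundant of the 9 genes in Control and lay below 5 others in ENZ on the FPKM scale.

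The other member of subfamily C moved the other way. DOCK6, which can activate both Rac and Cdc42 and is mutated in Adams-Oliver syndrome, had 3.61, 3.57 and 3.74 FPKM in ENZ libraries and 3.22, 3.34 and 3.03 FPKM in Control libraries. The ENZ libraries were all higher, by 0.22 ± 0.05 on the log2 scale. DOCK6 has the highest GC content of the set (61.6% in its longest transcript), and with offsets for GC content and length the log2 fold change was 0.07 and was no longer called.

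In subfamily B the paralogues also parted. DOCK4, which acts on Rac and has been linked to Rap, had 1.06, 1.00 and 1.00 FPKM in ENZ libraries, against 1.76, 1.63 and 1.80 FPKM in Control libraries. Every ENZ value was lower, and the log2 fold change was −0.73 ± 0.07. DOCK3, a mainly neuronal Rac exchange factor that binds presenilin, had 5.24, 4.86 and 4.91 FPKM in ENZ libraries and 4.22, 4.11 and 4.03 FPKM in Control libraries. It was the largest rise of the set, with a log2 fold change of 0.32 ± 0.05, or 1.24-fold. On the log2(FPKM + 1) scale, which understates changes of low genes, DOCK4 had a log2 fold change of −0.43 and was still called.

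Subfamily A differed least. DOCK1 (DOCK180), the founding member, which with ELMO drives engulfment and membrane ruffling, had 4.43, 4.60 and 4.51 FPKM in ENZ libraries and 5.02, 4.97 and 5.20 FPKM in Control libraries. The groups did not overlap, but the log2 fold change was −0.13 ± 0.05 (95% interval −0.24 to −0.02, not adjusted for the number of genes) and was not called. It was called under 4 of the 18 alternative settings, with log2 fold changes of −0.17 to −0.13 there. DOCK5, a Rac exchange factor needed for the bone-resorbing activity of osteoclasts in mice, had 6.42, 6.11 and 5.94 FPKM in ENZ libraries and 6.11, 5.69 and 5.94 FPKM in Control libraries. These ranges overlapped, and the log2 fold change was 0.09 ± 0.04 (95% interval 0.00 to 0.18). With GC and length offsets it was 0.13 and was called.

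Subfamily D held a fall, a rise and a gene at the limit of detection. DOCK11 (zizimin2), a Cdc42 exchange factor of lymphoid cells, had 1.35, 0.978 and 1.05 FPKM in ENZ libraries, against 2.01, 1.90 and 1.68 FPKM in Control libraries. It fell by 0.69 on the log2 scale (SE 0.11), the least precise of the tested DOCK genes, on 178 to 385 counts a library. On the log2(FPKM + 1) scale the value was −0.43, still called. DOCK9 (zizimin1), a Cdc42 exchange factor that promotes dendrite growth, had 4.89, 4.62 and 4.76 FPKM in ENZ libraries and 3.92, 4.54 and 4.41 FPKM in Control libraries. Its log2 fold change was 0.18 ± 0.05, and much of the difference lay in the first Control library: without Control replicate 1 the value was 0.12 and was not called. DOCK10 (zizimin3), known from B lymphocytes, had 4, 2 and 6 counts in ENZ libraries and 2, 3 and 3 counts in Control libraries. Summed, these were 12 counts in ENZ (95% Poisson interval 6.20 to 21.0) and 8 in Control (3.45 to 15.8, counting error only), and a count of 0 would itself allow 3 counts a library, so no difference was detectable at this depth.

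**Figure D2:**
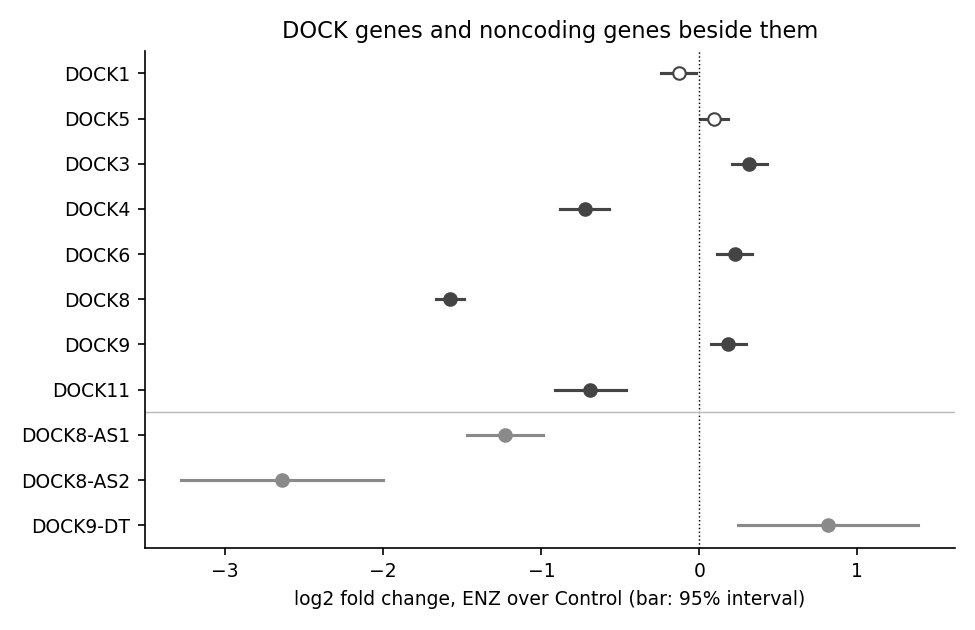
Log2 fold change of ENZ over Control with its 95% interval for the 8 tested DOCK genes, in the order of their subfamilies, and below the line for 3 noncoding genes beside DOCK8 or DOCK9. Filled points were called; DOCK8 at −1.58, DOCK4 at −0.73 and DOCK11 at −0.69 lie left of 0.

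As a summed level, the 9 genes had 29.1 ± 0.584 FPKM in ENZ and 34.9 ± 0.0869 FPKM in Control (SD, n = 3 each). Without DOCK8 the sum was 26.2 ± 0.685 FPKM in ENZ and 26.2 ± 0.0807 FPKM in Control, so the rises and falls of the other 8 genes offset each other in the total. DOCK8 held 9.76% of the sum in ENZ and 24.9% in Control. The share of DOCK5 was 21.2% in ENZ and 17.0% in Control, that of DOCK3 17.2% in ENZ and 11.8% in Control, and that of DOCK9 16.4% in ENZ and 12.3% in Control. These shares depend on the sum, which DOCK8 lowers in ENZ: the DOCK5 level itself overlapped between the groups, and DOCK1 had a share of 15.5% in ENZ and 14.5% in Control although its FPKM was lower in every ENZ library.

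The order of levels depends on the length that counts are divided by. The length behind the deposited FPKM was the merged length of all annotated exons for 7 of the 8 DOCK genes that could be compared, and came close to it for DOCK9 (14808 against 15065 bases). For DOCK8 that length is 20056 bases, while its longest transcript has 9277. In FPKM the order in ENZ was DOCK5, DOCK3, DOCK9, DOCK1, DOCK6, DOCK8, DOCK11, DOCK4 and DOCK10, and in Control DOCK8, DOCK5, DOCK1, DOCK9, DOCK3, DOCK6, DOCK11, DOCK4 and DOCK10. Neighbours whose libraries overlapped were DOCK3 with DOCK9 and DOCK11 with DOCK4, in both groups. Per kilobase of longest transcript, a scale chosen after the data were seen, DOCK8 had a level of 6.13 ± 0.219 in ENZ, behind DOCK5 and DOCK6, and 18.7 ± 0.0388 in Control, ahead of all others (SD, n = 3 each), and its share of the sum was 14.7% in ENZ and 34.7% in Control. On that scale DOCK6 ranked just behind DOCK5 in both groups, and DOCK11 behind DOCK4, while the libraries of DOCK8 and DOCK9 overlapped in ENZ and those of DOCK6 and DOCK1 in Control.

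The starts of DOCK8, DOCK4, DOCK3 and DOCK9 are shown to let their sequence be compared. RefSeq (GRCh38.p14) gave promoter windows for 7 of the 9 genes, 11 windows in all, and none for DOCK5 or DOCK6. The 250 bases before the start are printed 5′ to 3′ on the strand of the gene, for DOCK8 at chr9:214615-214864 (plus strand), DOCK4 at chr7:112206400-112206649 (minus strand), DOCK3 at chr3:50674677-50674926 (plus strand) and DOCK9 at chr13:99086695-99086944 (minus strand). Capitals mark GC boxes (GGGCGG, or CCGCCC on the other strand) and CCAAT boxes (CCAAT or ATTGG), and boxes that overlap form a single run.
DOCK8: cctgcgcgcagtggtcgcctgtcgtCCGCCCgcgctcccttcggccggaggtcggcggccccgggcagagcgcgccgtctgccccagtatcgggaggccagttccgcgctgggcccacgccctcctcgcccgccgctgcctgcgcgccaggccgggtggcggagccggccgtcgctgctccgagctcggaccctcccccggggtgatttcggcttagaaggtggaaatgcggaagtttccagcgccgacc
DOCK4: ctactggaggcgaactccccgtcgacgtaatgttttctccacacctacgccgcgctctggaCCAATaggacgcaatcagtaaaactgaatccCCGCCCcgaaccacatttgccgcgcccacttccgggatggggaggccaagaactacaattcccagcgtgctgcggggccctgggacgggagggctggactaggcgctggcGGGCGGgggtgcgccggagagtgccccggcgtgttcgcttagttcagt
DOCK3: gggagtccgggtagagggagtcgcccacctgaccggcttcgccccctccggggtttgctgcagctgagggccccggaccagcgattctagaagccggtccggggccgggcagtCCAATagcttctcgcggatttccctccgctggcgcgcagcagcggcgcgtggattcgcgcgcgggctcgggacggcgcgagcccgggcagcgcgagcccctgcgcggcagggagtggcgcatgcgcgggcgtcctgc
DOCK9: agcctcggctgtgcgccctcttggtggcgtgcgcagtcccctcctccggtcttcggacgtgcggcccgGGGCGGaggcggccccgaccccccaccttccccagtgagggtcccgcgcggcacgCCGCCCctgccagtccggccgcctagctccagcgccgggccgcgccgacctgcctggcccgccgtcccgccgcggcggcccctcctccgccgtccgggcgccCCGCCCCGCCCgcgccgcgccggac
All 4 windows are rich in G and C, at 75.2% for DOCK8, 63.6% for DOCK4, 74.4% for DOCK3 and 82.8% for DOCK9, against a median of 58.0% over 35116 windows. A GC box lay in 5 of the 11 DOCK windows and in 42.6% of all windows, and a CCAAT box in 3 of the 11 and in 32.0% of all. No DOCK window held the steroid receptor half-site AGAACA (12.4% of all windows), the TATA box TATAAA (10.7%), the E-box CACGTG (6.3%) or the cAMP response element TGACGTCA (1.6%), searched on both strands. These matches describe letters and not bound sites. High GC content was shared by the printed windows of DOCK8 and DOCK4, which fell, and of DOCK3 and DOCK9, which rose. The window of DOCK11, which fell and is not printed, had 68.8% GC and held neither a GC box nor a CCAAT box. DOCK8 and DOCK9 each have a second window at an inner start, with 43.6% GC for DOCK8 and 47.2% for DOCK9, both under the median.

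Transcripts at the ends of DOCK8 moved with it. DOCK8 (ENSG00000107099) lies on chromosome 9 from 214854 to 465259 on the plus strand (GRCh38, GENCODE release 44). DOCK8-AS1, a noncoding gene on the opposite strand that runs across the DOCK8 start (212824 to 215893 in GENCODE, and beginning 885 bases downstream of DOCK8 by the RefSeq starts), had 3.80, 4.86 and 4.25 CPM in ENZ libraries, against 11.6, 9.97 and 9.40 CPM in Control libraries. It fell by 1.23 on the log2 scale (SE 0.12, adjusted p = 2.44e-08 in edgeR's test). DOCK8-AS2, another noncoding gene on the opposite strand, which runs across the far end of DOCK8, had 7, 7 and 11 counts in ENZ libraries and 58, 37 and 59 counts in Control libraries, with a log2 fold change of −2.64 ± 0.31 (adjusted p = 5.82e-07). DOCK8-AS1 and DOCK8-AS2 share 426 and 373 exon bases with DOCK8, and the protocol names no step that marks strand, so reads of the shared stretches cannot be told apart. DOCK8-AS1 had 6.96 to 8.35% as many counts as DOCK8 in ENZ libraries and 5.42 to 6.66% in Control libraries. With the counts of both antisense genes added to DOCK8 its log2 fold change was −1.56.

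Some genes toward the chromosome end from DOCK8 fell as well. The nearest protein-coding gene toward the chromosome end, ZNG1A, which encodes a zinc chaperone, had 160, 152 and 149 CPM in ENZ libraries, against 324, 324 and 328 CPM in Control libraries, a log2 fold change of −1.05 ± 0.04 (adjusted p = 7.85e-16). FOXD4, a forkhead transcription factor gene beyond it (chromosome 9, 116231 to 118417), had 19.1, 19.2 and 18.6 CPM in ENZ libraries and 59.1, 59.0 and 57.4 CPM in Control libraries, a log2 fold change of −1.59 ± 0.05 (adjusted p = 7.18e-16). All ENZ libraries were low for both genes and no value overlapped Control. The noncoding gene ENSG00000227917 (100804 to 110138) had 24, 24 and 27 counts in ENZ libraries and 133, 129 and 115 counts in Control libraries, with a log2 fold change of −2.36 ± 0.17 (adjusted p = 3.63e-10). LINC01388 (112713 to 113754), which lies between ENSG00000227917 and FOXD4, had a log2 fold change of −0.52 and was not called. Farther toward the end WASHC1, a gene with near-identical copies, had 21.5 CPM in ENZ and 22.2 CPM in Control (log2 fold change −0.01). MIR1302-9HG, also farther out, was at −0.02, and neither it nor WASHC1 was called. On the other side KANK1, a regulator of actin and cell adhesion that starts 5032 bases past DOCK8, had 60.1, 60.3 and 62.3 CPM in ENZ libraries and 54.2, 57.3 and 51.0 CPM in Control libraries, a rise of 0.20 ± 0.05 (adjusted p = 0.00340). The KANK1 call ended on log2(FPKM + 1) values (adjusted p = 0.105).

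FOXD4 and ZNG1A have near-identical copies elsewhere, which makes their counts uncertain. Of the copies measured, ZNG1B on chromosome 2 fell by 0.66, ZNG1C by 0.30 and ZNG1F by 0.35 on the log2 scale, less than ZNG1A, while ZNG1E had a log2 fold change of −0.26 and was not called. FOXD4L1 on chromosome 2 fell by 0.79 at 1.45 CPM in ENZ and 2.58 CPM in Control, and FOXD4L3, FOXD4L4, FOXD4L5 and FOXD4L6 were not called, at −0.44 to −0.20. How much of these values comes from reads shared between copies was not tested.

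Within 500 kb of DOCK8, a window set after these values were seen, 10 other genes were tested, and 5 were called lower, 1 higher and 4 not at all, where 19.3% of all genes tested were called lower. All 5 lower calls passed a log2 fold change of −1, as did 2.24% of all genes tested, and 2 of the 5 are DOCK8-AS1 and DOCK8-AS2, which share exon bases with DOCK8. Around the other tested DOCK genes the same window held 1 to 31 other tested genes and no lower call past −1. Around DOCK5, 4 of 6 were lower and 1 higher, around DOCK4, 1 of 5 was lower and 0 higher, and around DOCK11, 1 of 4 was lower and 0 higher. DOCK3 had 9 higher and 4 lower among 30. Its nearest protein-coding genes on the 2 sides were MANF, a secreted endoplasmic reticulum factor that fell by 0.29 (adjusted p = 5.77e-06), and the kinase gene MAPKAPK3, which rose by 0.25 (adjusted p = 0.00170). The noncoding genes LINC02019 and ENSG00000289504, which lie between MAPKAPK3 and DOCK3, were not called.

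**Figure D3:**
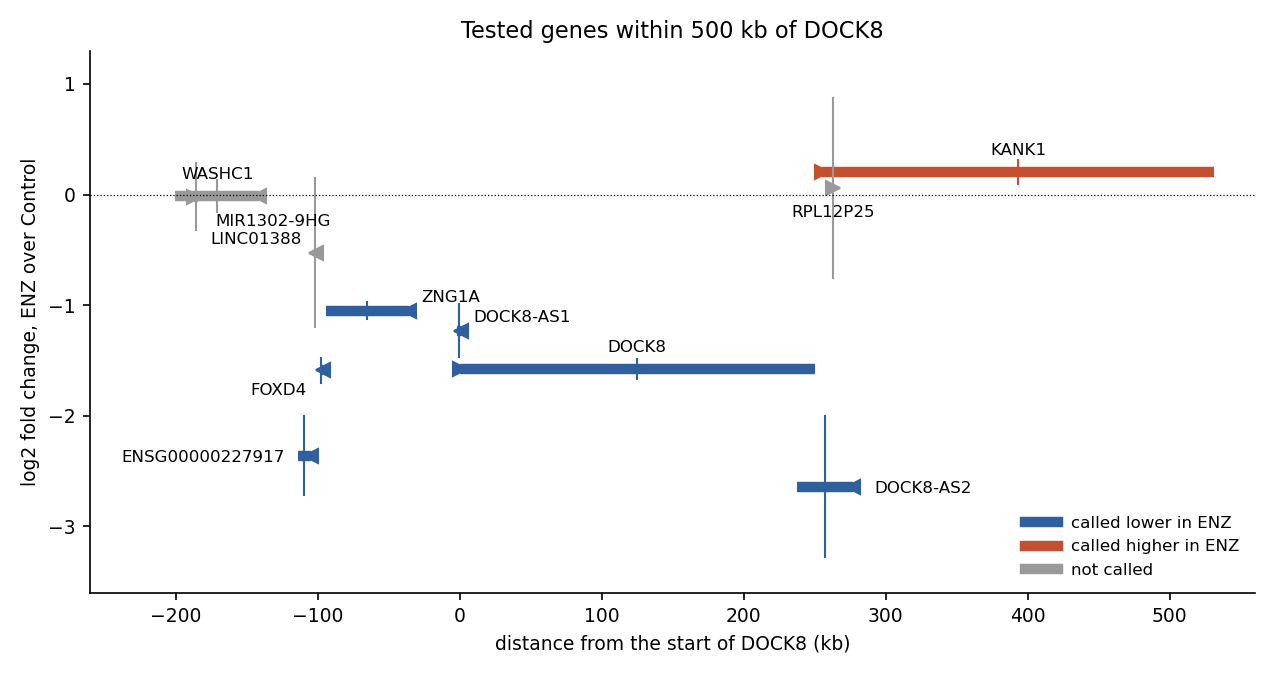
Log2 fold change of ENZ over Control for every tested gene within 500 kb of DOCK8, drawn over its position as distance from the DOCK8 start; the arrowhead is the start of the gene, the vertical line its 95% interval and the colour its call. ZNG1A, FOXD4, ENSG00000227917, DOCK8, DOCK8-AS1 and DOCK8-AS2 lie at −1.05 or lower and KANK1 at 0.20.

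DOCK9 also has a noncoding partner. The noncoding gene DOCK9-DT runs the other way from it. By its RefSeq start it begins 29 bases from the DOCK9 start, inside the DOCK9 window printed above, while GENCODE release 44 places it at 99087819 to 99088625 on chromosome 13, past that window. It had 30, 36 and 33 counts in ENZ libraries and 22, 20 and 13 counts in Control libraries, with a log2 fold change of 0.81 ± 0.28 (adjusted p = 0.0223). The ENZ libraries were all higher, but the call ended without Control replicate 3 (0.64, adjusted p = 0.108) and without ENZ replicate 2 (0.70, adjusted p = 0.0999), and in DESeq2 (adjusted p = 0.103). Most of the other measured genes that overlap DOCK genes were too low to be tested, and ENSG00000288988 in DOCK3 and ENSG00000267082 in DOCK6, which were tested, were not called. Among the untested, INSYN2A inside DOCK1 had 0.257 CPM in ENZ and 0.0975 CPM in Control, and ANGPTL8 inside DOCK6 had 0.0573 CPM in ENZ and 0.0359 CPM in Control.

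Likeness to DOCK8 was measured as the distance between log2 CPM profiles over the 6 libraries, each centred on its own mean. Of 15342 other genes with a mean of at least 1 CPM, those without a symbol were left out of the ranking. Among named genes the closest profiles were those of the DOCK8 neighbour FOXD4 (distance 0.0926), of FKBP5, a co-chaperone of steroid receptors (0.106), and of SLC45A3, a prostate transporter gene (0.142). FKBP5 had 348, 343 and 340 CPM in ENZ libraries, against 1050, 1031 and 1077 CPM in Control libraries. For DOCK3 the closest were EFL1 (0.0412), PMS2 (0.0466) and FHIP1A (0.0532), with log2 fold changes of 0.29 to 0.33; EFL1 and PMS2 have pseudogene copies and their counts are uncertain. With 2 groups of 3 libraries, closeness of profile is mostly closeness of fold change.

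The genes around the DOCK enzymes in their pathway were described from 7 lists, 127 genes in the table and 114 tested, of which 36 were higher and 15 lower in ENZ. Of all genes tested 20.5% were higher and 19.3% lower, the background for the count in each list. Their median log2 fold change was 0.08, against −0.01 over all genes tested. Adjusted p-values below are from edgeR's quasi-likelihood test over all genes tested.

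Of 12 DOCK binding partners 5 rose and 1 fell, with a median of 0.05. ELMO3, a scaffold of DOCK subfamilies A and B, had 68.4 ± 1.69 CPM in ENZ and 58.0 ± 0.823 CPM in Control (SD, n = 3 each), a rise of 0.27 ± 0.05 (adjusted p = 7.48e-05). ELMO2 differed by 0.07 on the log2 scale and was not called, and ELMO1 was low at 1.74 CPM in ENZ and 1.78 CPM in Control. ARHGEF16, an ELMO-binding exchange factor, rose by 0.38 (adjusted p = 6.53e-07), and the adaptor BCAR1 (p130Cas) rose by 0.22 (adjusted p = 0.00176). ANKRD28, which binds DOCK1, fell by 0.18 (adjusted p = 0.00247). With GC and length offsets BCAR1 was at 0.06 and ANKRD28 at −0.01, both without a call.

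Of 8 tested receptors and adaptors that act before DOCK1 and ELMO in engulfment 2 rose and 4 fell, with a median of −0.22. The scavenger receptor gene LRP1 rose by 0.85 ± 0.13 (adjusted p = 2.22e-05) and ADGRB1 (BAI1), which binds ELMO directly, by 0.93 ± 0.24 (adjusted p = 0.00309). GULP1, an engulfment adaptor, had 163 CPM in ENZ and 228 CPM in Control, a fall of 0.45 ± 0.07 (adjusted p = 2.94e-04). Integrin alpha V (ITGAV) fell by 0.32 (adjusted p = 0.00173), a call that ended with GC and length offsets (−0.05). MEGF10, an engulfment receptor gene with a mean under 1 CPM, fell by 2.08. MERTK, a receptor for bridging ligands on dead cells, fell by 0.31 (adjusted p = 0.0208), and its call ended without Control replicate 1 (adjusted p = 0.0628), Control replicate 2 (adjusted p = 0.120) or ENZ replicate 3 (adjusted p = 0.0698), and in DESeq2 (adjusted p = 0.0914).

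Among the GTPases themselves 3 of 10 tested rose and 1 fell, with a median of 0.13. RAC1, the main substrate of subfamilies A and B, had 446 CPM in ENZ and 381 CPM in Control, a rise of 0.26 ± 0.03 (adjusted p = 1.79e-06), and RAC3 rose by 0.25 ± 0.05 (adjusted p = 5.14e-04). RHOU, an atypical relative of Cdc42, had 208 CPM in ENZ and 329 CPM in Control, a fall of 0.63 ± 0.03 (adjusted p = 2.81e-12). RAP1B rose by 0.12 (adjusted p = 0.0206), and without Control replicate 1, Control replicate 3 or ENZ replicate 2 the adjusted p was 0.0636, 0.0639 and 0.151. CDC42 was counted at 2.30 CPM in ENZ and 2.76 CPM in Control, a low level for a gene that every cell uses, and its count is uncertain. GENCODE places a readthrough gene over CDC42, but the deposited counts hold no such gene. Whether it bears on the CDC42 count was not tested.

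Of 27 tested Rac and Cdc42 effectors 8 rose and 1 fell, with a median of 0.06. The kinase genes PAK6 and PAK1 rose by 0.35 (adjusted p = 7.49e-05) and 0.24 (adjusted p = 0.00105), and CDC42EP1, a Cdc42-binding actin regulator, by 0.29 (adjusted p = 8.39e-04). WASF1, a subunit of the WAVE complex that nucleates actin branches, fell by 0.24 (adjusted p = 0.00195). Of the other WAVE subunits in the list, WASF2 rose by 0.16 (adjusted p = 0.00246) and CYFIP2 by 0.16 (adjusted p = 0.00903), and WASF3, CYFIP1, NCKAP1, ABI1, ABI2 and BRK1 were between −0.09 and 0.11 and were not called. Without Control replicate 1 or 3 the list had 5 higher calls, without ENZ replicate 2 it had 4, and without ENZ replicate 1 or 2 it had 2 lower calls.

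The Dbl-family exchange factors, which act on the same switches with another catalytic fold, did not follow 1 direction. For Rac or Cdc42, 5 of 24 tested rose and 5 fell, with a median of 0.01. FGD4, a Cdc42 exchange factor, had 12.8 CPM in ENZ and 23.1 CPM in Control, a fall of 0.82 ± 0.07 (adjusted p = 1.44e-08), FGD6 fell by 0.52 (adjusted p = 1.68e-04) and RASGRF2 by 0.72 (adjusted p = 0.00101). DNMBP rose by 0.31 (adjusted p = 8.91e-04), VAV3 by 0.45 (adjusted p = 0.00294) and ARHGEF6 by 0.35 (adjusted p = 0.00910), the last not called without Control replicate 1 (adjusted p = 0.0529), where 2 of the 24 were higher. For RhoA, 7 of 16 rose and 1 fell, with a median of 0.16. ARHGEF2 (GEF-H1), held on microtubules, rose by 0.40 ± 0.05 (adjusted p = 7.45e-07), NET1 by 0.18 (adjusted p = 9.34e-05) and ARHGEF17 by 0.57 (adjusted p = 7.07e-04). ECT2, the exchange factor of cytokinesis, had 101 CPM in ENZ and 150 CPM in Control, a fall of 0.53 ± 0.07 (adjusted p = 1.62e-04).

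Of 17 tested genes that turn the switches off or hold them inactive, the GTPase-activating proteins and GDIs, 6 rose and 2 fell, with a median of 0.08. BCR rose by 0.31 (adjusted p = 1.13e-05), its relative ABR by 0.21 (adjusted p = 7.92e-04) and SRGAP3 by 0.45 (adjusted p = 8.51e-04), while SRGAP2 fell by 0.22 (adjusted p = 1.89e-04). SRGAP2 has human-specific partial copies, so its count is uncertain, and the ABR call ended with GC and length offsets (0.08). RACGAP1, which works with ECT2 in cytokinesis, fell by 0.13 (adjusted p = 0.00930), with no call without Control replicate 1 (adjusted p = 0.0523) or ENZ replicate 2 (adjusted p = 0.0858), which left 1 lower call in the list.

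**Figure D4:**
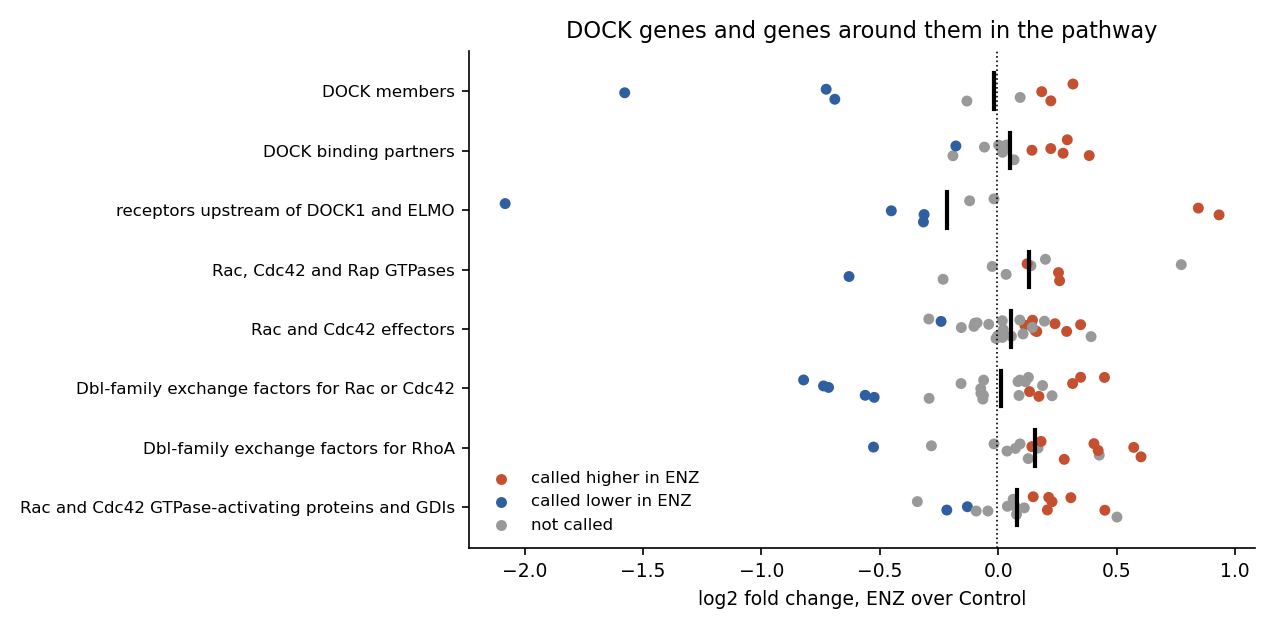
Log2 fold change of ENZ over Control for each tested gene of the DOCK set and of 7 pathway lists; colour is the call, the black bar the median of the list and the dotted line the median of all genes tested (−0.01). List medians run from −0.22 for receptors upstream of DOCK1 and ELMO to 0.16 for RhoA exchange factors, and only MEGF10 at −2.08 lies below DOCK8 at −1.58.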

How the data were processed

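RNA-seq libraries of 6 samples were grouped by their titles, 3 ENZ and 3 Control. The deposited tables hold, for 37923 genes, raw read counts and FPKM values computed by the authors. Per the submitters' processing notes, HISAT2 2.0.5, HTSeq 0.6.1, DESeq2 1.20.0 and GRCh38 (hg38) were used. The annotation release, strand setting and filters were not given in the sources used here. Per the labels' protocols, poly(A) RNA was primed with random hexamers and no step that marks strand is named. The deposited FPKM equalled counts over 1 length per gene and the library total, to within 3.76e-06 percent at 10 or more counts. GENCODE release 44 held 37817 of the gene identifiers.

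Low genes were dropped by filterByExpr, libraries scaled by TMM, and the counts of the 18581 genes left tested in edgeR 4.0.16 under R 4.3.3 (glmQLFit with the robust option, then glmQLFTest). P-values were adjusted over these genes by Benjamini and Hochberg, and genes with an adjusted p under 0.05 are described as called. A log2 fold change is ENZ relative to Control, and the SE is the absolute log2 fold change over the square root of F. CPM uses library totals. A count of 0 allows 3 counts, 0.0999 to 0.112 CPM per library, for counting error only. The scripts were tested on simulated data. Alternatives were DESeq2 1.42.0, limma-voom and limma on log2 FPKM (limma 3.58.1), other scalings, filters, GC and length offsets, antisense counts added, a replicate block and each library left out.

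The DOCK genes and all lists were chosen with earlier results of these data known. Named list genes are the up to 3 called genes of smallest adjusted p in each direction with a mean of at least 1 CPM; others named beside them (ELMO1, ELMO2, MEGF10, CDC42, the WAVE subunits, the FOXD4 and ZNG1A copies, WASHC1, MIR1302-9HG, LINC01388 and ENSG00000227917) were chosen after their values were seen. SPATA13 has more than 1 row and was left out.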

Additional observations from a re-analysis of the deposited data

How the results depend on the processing

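Each of the 8 tested DOCK genes kept its direction under all 18 alternatives. DOCK8 ran from −1.61 to −1.33, DOCK4 from −0.77 to −0.43, DOCK11 from −0.84 to −0.43 and DOCK3 from 0.23 to 0.34, all called under every alternative. DOCK9 lost its call on the 3 FPKM settings, and DOCK6 on unfiltered log2(FPKM + 1) and with GC and length offsets, so unfiltered log2(FPKM + 1) called 1 DOCK gene higher in place of 3. The table had 3814 higher and 3579 lower calls. Higher calls numbered 2526 on log2(FPKM + 1), 2520 on log2(FPKM + 0.1) and 1723 on unfiltered log2(FPKM + 1), which gave 2005 lower calls. Over the 7 lists the 36 higher calls were 18, 18 and 11 in these settings, and the 15 lower calls were 7 in the last. Counts in single lists moved by over 1.5 times in 22 higher and 11 lower cases. Effectors called higher numbered 8, but 5 on library totals and without Control replicate 1 or 3, and 4 without ENZ replicate 2; effectors called lower numbered 1, but 2 on library totals and without ENZ replicate 1 or 2. Rac and Cdc42 exchange factors called higher numbered 5, but 2 without Control replicate 1. GTPase-activating proteins called lower numbered 2, but 1 without Control replicate 1 or ENZ replicate 2. With GC and length offsets GTPases called higher numbered 5 in place of 3, and DOCK partners called lower 0 in place of 1. On log2(FPKM + 1), filtered and unfiltered, the higher calls numbered 0 and 0 for receptors (2 on counts), 4 and 3 for effectors, 2 and 0 for Rac and Cdc42 exchange factors, 2 and 2 for RhoA exchange factors (7 on counts) and 3 and 1 for GTPase-activating proteins (6 on counts), and the lower calls 2 and 1 for Rac and Cdc42 exchange factors (5 on counts). Log2(FPKM + 0.1) gave the filtered counts. Unfiltered values also gave 3 higher and 0 lower DOCK partners (5 and 1 on counts) and 1 lower receptor (4 on counts). The cause of these differences was not tested. The replicate block gave 3832 higher and 3634 lower calls, and 3 DOCK genes each way; deviations of same-numbered libraries correlated at −0.08 to 0.06, and not every library was closest to its own number, so the numbers were not taken to pair samples. The calls of DOCK9-DT and MERTK also ended in DESeq2 (adjusted p = 0.103 and 0.0914). Depth limits DOCK10, which could not be tested.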
